A study of Mus musculus with 9 samples.

Results

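Genes of heterotrimeric G protein signalling and of the cAMP pathway were examined in alpha TC6, a glucagonoma-derived line of mouse alpha cells. Members were taken by gene symbol alone, as G protein alpha, beta and gamma subunits, numbered adenylyl cyclases, subunits of protein kinase A (PKA), numbered phosphodiesterases and Rapgef exchange factors. Of 22180 genes measured, 76 were members, made up of 16 alpha, 4 beta and 9 gamma subunits, 9 adenylyl cyclases, 2 catalytic and 4 regulatory PKA subunits, 26 phosphodiesterases and 6 Rapgef genes. The symbols also brought in photoreceptor and taste genes (Gnat1, Gnat2, Gnat3 and the Pde6 genes other than Pde6d). Some genes share a name but not the cyclic nucleotide role (Pde12, Pde4dip, Pde6d and Rapgefl1).

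The study asked which genes act in signalling through insulin receptor substrates 1 and 2 (IRS1 and IRS2) in alpha cells. alphaIRS1KD cells carried a short hairpin RNA against Irs1, alphaIRS2KD cells carried one against Irs2, and control cells carried a nonsilencing one. All 3 lines were infected with lentivirus and selected with puromycin, and each knockdown was a single stable line. Each group had 3 of the 9 arrays (Affymetrix Mouse Gene 2.0 ST). Values are log2 signals, so a difference of 1 is a change by a factor of 2, and probe brightness does not rank different genes against each other. No source used here said whether the 3 arrays of a group came from separate cultures, so the p-values measure the spread between these arrays, which may be technical.

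A receptor that couples to a stimulatory G protein releases its alpha subunit to activate adenylyl cyclase, and one that couples to an inhibitory alpha subunit restrains the cyclase, while the paired beta and gamma subunits act on channels and other effectors. The cAMP formed frees the catalytic subunits of PKA from the regulatory ones and activates the Epac members among the Rapgef exchange factors for the small GTPase Rap, and phosphodiesterases end the signal by hydrolysis. In pancreatic alpha cells this pathway carries the stimulation of glucagon secretion by adrenaline and GIP.

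The labels held up on the targeted transcripts. Irs1 was 1.88-fold lower than control in alphaIRS1KD cells (adjusted p = 3.2e-05) and Irs2 was 1.49-fold lower in alphaIRS2KD than in control cells (adjusted p = 0.0017, limma). All 7 measured alpha-cell markers of a list of 11 lay above the array medians, which ran from 5.03 to 5.11, with Gcg (glucagon) at 13.21 in alphaIRS1KD, 13.21 in alphaIRS2KD and 13.24 in control cells. The Gcg signal was identical on all alphaIRS2KD arrays (SD 0) and nearly so in alphaIRS1KD cells (SD 0.002). These values are therefore a weak guide to any difference in Gcg between the lines. Among the 7 alpha-cell markers, Ttr (transthyretin) averaged 11.82 in alphaIRS1KD, 12.54 in alphaIRS2KD and 12.80 in control cells. In limma Ttr was called lower in alphaIRS1KD cells, against control (log2 change -0.98, adjusted p = 2.8e-05) and alphaIRS2KD cells (-0.72, adjusted p = 0.00027). Irx1, Irx2 and Pax6 were called higher in alphaIRS1KD than in control cells, with Irx1 called higher in alphaIRS2KD cells too (0.35, adjusted p = 0.024). Among other cell types, 2 of 6 measured beta-cell markers, 1 of 3 delta and PP cell, 3 of 3 exocrine and duct, 1 of 3 fibroblast and 1 of 2 leukocyte markers lay under the array medians. The beta-cell markers spanned group means of 4.06 to 8.18, and the widest gap among them was that of Iapp (amylin), which averaged 4.74 in alphaIRS1KD, 5.97 in alphaIRS2KD and 4.78 in control cells, and gave the smallest adjusted p of these markers (0.061, alphaIRS1KD against alphaIRS2KD). The part of the marker changes in the values below was not tested, and in bulk RNA fewer cells of a type and less RNA per cell cannot be told apart.

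For 4 of the members that differed most, the RefSeq sequence before a transcription start is shown (GRCm38.p6, 250 bases on the gene's strand, 5′ to 3′), because the values below set Gnai1 and Pde7b, higher in alphaIRS1KD cells, beside Gng3 and Gng12, which were lower there. Capitals mark the GC box GGGCGG, a site of Sp family factors, read on both strands. Gnai1 is at chr5:18360414-18360663 on the minus strand, Pde7b at chr10:20548329-20548578 on the minus strand, Gng3 at chr19:8839247-8839496 on the minus strand and Gng12, which has a second RefSeq start, at chr6:66896147-66896396 on the plus strand. The Pde7b window lies inside the RefSeq span of its gene (chr10:20397052-20725078), so it precedes an internal start. The sequence before the outer end of Pde7b was not searched.
Gnai1: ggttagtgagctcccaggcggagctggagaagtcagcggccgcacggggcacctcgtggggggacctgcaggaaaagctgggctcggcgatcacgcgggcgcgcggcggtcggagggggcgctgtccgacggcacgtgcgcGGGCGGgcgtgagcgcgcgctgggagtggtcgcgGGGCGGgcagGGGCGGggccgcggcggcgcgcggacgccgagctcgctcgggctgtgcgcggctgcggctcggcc
Pde7b: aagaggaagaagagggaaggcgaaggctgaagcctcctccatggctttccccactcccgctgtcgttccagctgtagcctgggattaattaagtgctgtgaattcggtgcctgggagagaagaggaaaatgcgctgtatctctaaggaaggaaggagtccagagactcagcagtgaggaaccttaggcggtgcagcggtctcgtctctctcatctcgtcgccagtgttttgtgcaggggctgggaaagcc
Gng3: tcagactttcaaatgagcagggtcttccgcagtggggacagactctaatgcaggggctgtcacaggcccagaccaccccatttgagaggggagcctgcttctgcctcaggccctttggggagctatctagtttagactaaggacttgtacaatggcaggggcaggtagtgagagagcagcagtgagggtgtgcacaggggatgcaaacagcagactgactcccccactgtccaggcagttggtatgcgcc
Gng12: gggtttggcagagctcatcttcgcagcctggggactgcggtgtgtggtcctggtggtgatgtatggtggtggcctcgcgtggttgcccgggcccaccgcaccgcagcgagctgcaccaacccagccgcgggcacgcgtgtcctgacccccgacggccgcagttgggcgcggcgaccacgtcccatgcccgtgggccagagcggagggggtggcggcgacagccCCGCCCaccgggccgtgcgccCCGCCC

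The Gnai1 window held 3 GC boxes and the Gng12 window 2, and those of Pde7b and Gng3 held none. Among all 32851 RefSeq promoter windows of this length 32.7% held at least 1 GC box, and 44 of the 105 windows of the 60 members found there did (41.9%). None of the 4 windows shown held the cAMP response element TGACGTCA, its half-site TGACG (both strands, and the half-site lies within the full element), the forkhead core GTAAACA or the TATA box TATAAA. The full element was in 1.55% of all windows and in 1 member window, of Prkar1a. The half-site was in 17.8% of all windows and in 21 of 105 member windows (20%), among them windows of Gnas, Adcy9, Prkaca and Prkacb. The forkhead core was in 3.17% of all windows and in 3 of 105 member windows (2.86%), of Pde1b, Pde1c and Pde4c, and the TATA box in 12.4% of all windows and in 7 of 105 (6.67%). A match describes the letters of the window and no match says only that they are not there.

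In alphaIRS1KD cells, 10 of the 76 members were called against control cells. A call throughout is a limma p below 0.05 after adjustment over all 22180 genes. Higher were Gnai1, Gna12, Gng11, Adcy9, Prkar2a and Pde7b, 6 members (7.89%) where 2.98% of all genes were called higher, and lower were Gng3, Gng5, Gng12 and Pde6c, 4 members (5.26%) where 3.68% of all genes were called lower. The log2 fold change had a median of 0.042 over the members and 0.005 over all genes. alphaIRS2KD cells had 0 members called against control cells in limma, in either direction, where 0.893% of all genes were called higher and 0.694% lower. With limma's unadjusted p taken at the same threshold, 8 members (10.5%) were higher and 3 (3.95%) lower, where 5.53% and 5.28% of all genes were. The methods' t-test gave 7 (9.21%) and 3 (3.95%), where it gave 4.14% and 3.85% of all genes. The member median there was 0.012 and that of all genes -0.003, and the smallest adjusted p was 0.062, for Gng4. Set directly against alphaIRS2KD cells, alphaIRS1KD cells had 4 members higher, where 1.71% of all genes were called higher, and 3 lower, where 2.42% were. These 7, Gnai1, Gng11, Pde7b, Prkar2a, Gng3, Gng5 and Gng12, were all called in the same direction against control cells too. The comparisons with control and with alphaIRS2KD cells share the alphaIRS1KD arrays, so this agreement is not independent support. Both knockdowns were set against the same 3 control arrays, so their changes are given side by side and no overlap between them is read as a result.

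**Figure D1:**
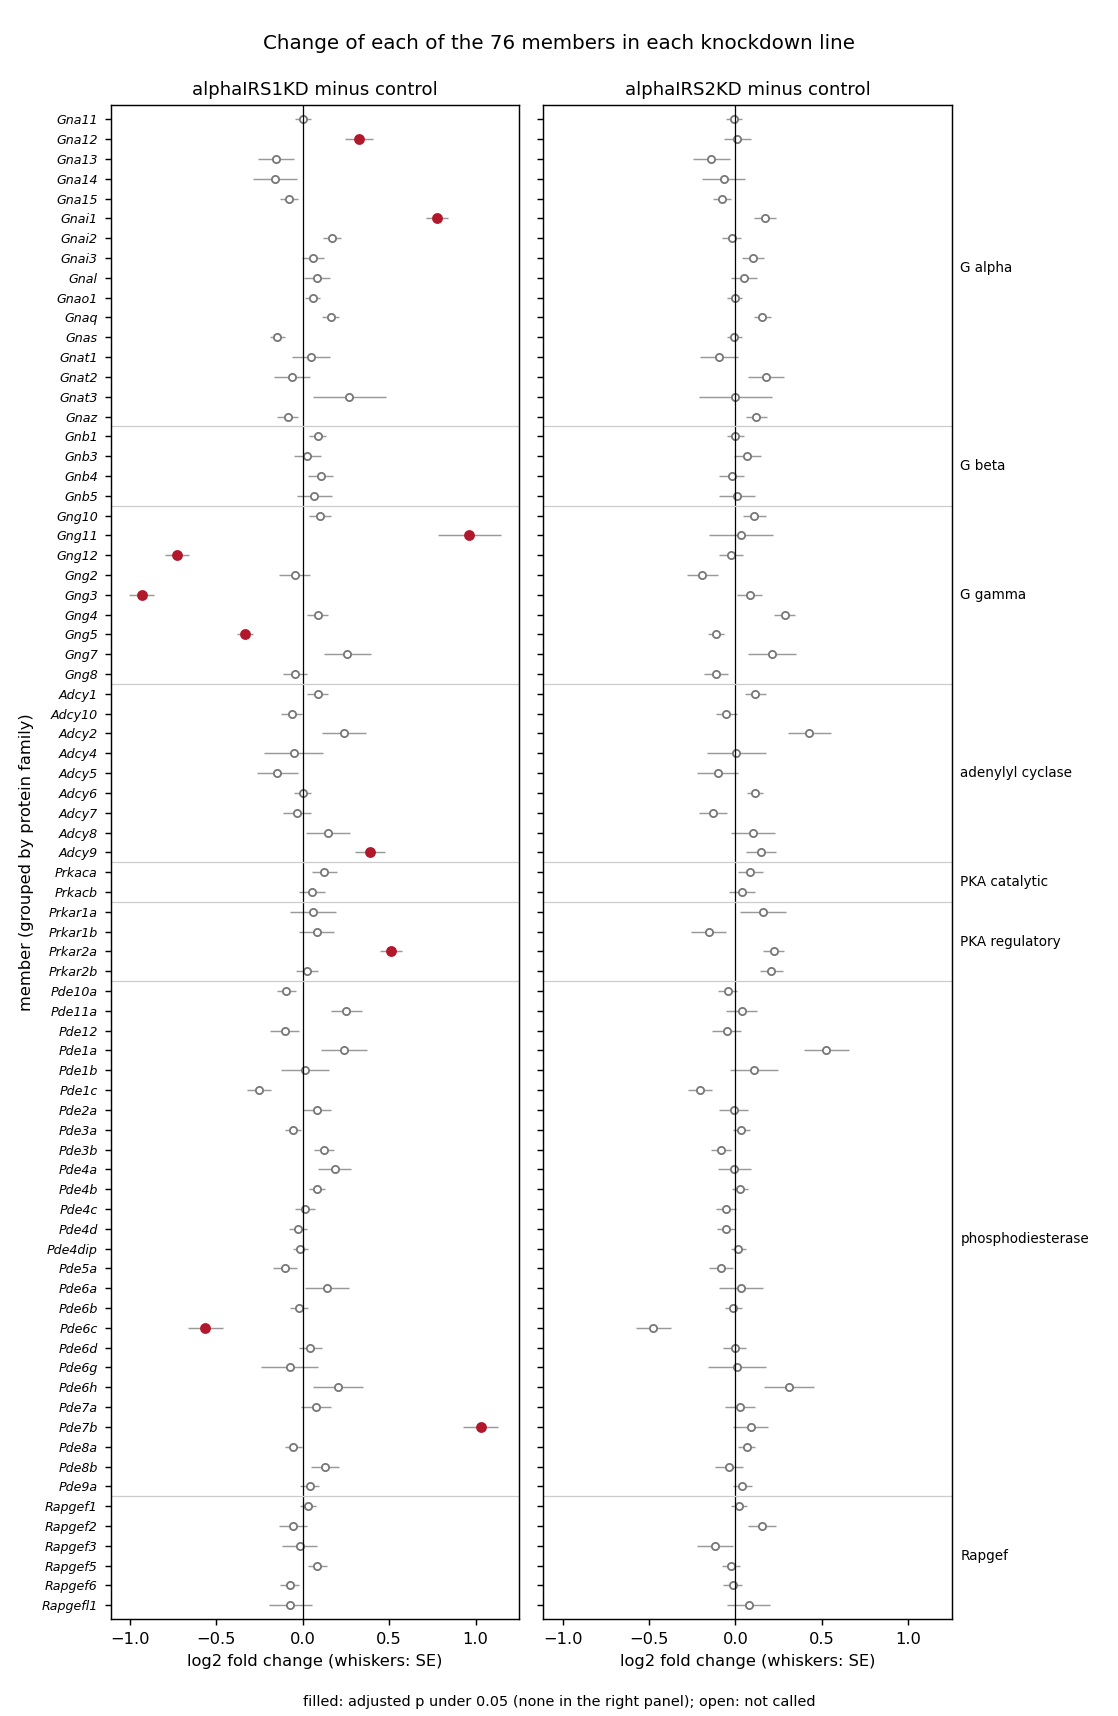
Log2 fold change of each of the 76 members in alphaIRS1KD (left) and alphaIRS2KD cells (right) against control cells, with whiskers for the SE from limma and members grouped by protein family. Filled points passed an adjusted p of 0.05, which 10 members did in alphaIRS1KD and 0 in alphaIRS2KD cells, and the largest changes on the left are those of Pde7b at 1.03 and Gng3 at -0.93.

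Among the alpha subunits, Gnai1, an inhibitory subunit that restrains adenylyl cyclase, was the clearest case. Its log2 signals were 9.64, 9.58 and 9.52 in alphaIRS1KD, 9.04, 9.03 and 8.85 in alphaIRS2KD and 8.77, 8.81 and 8.83 in control cells. All alphaIRS1KD arrays lay above all others, and the alphaIRS2KD arrays lay just above the control arrays. The level was 1.72-fold higher than control in alphaIRS1KD cells (log2 change 0.78, SE 0.06, adjusted p = 0.00015) and 1.52-fold higher than in alphaIRS2KD cells (0.61, adjusted p = 0.00099). Against control cells the alphaIRS2KD change was 0.17 (adjusted p = 0.35).

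The other inhibitory subunits moved less. Gnai2 averaged 10.06 ± 0.06 in alphaIRS1KD, 9.87 ± 0.05 in alphaIRS2KD and 9.89 ± 0.05 in control cells (SD, n = 3 each), and its 3 alphaIRS1KD arrays were above all the others without passing the threshold (adjusted p = 0.12 against control and 0.10 against alphaIRS2KD cells). Gnai3 averaged 9.36, 9.41 and 9.31 in alphaIRS1KD, alphaIRS2KD and control cells, and its groups overlapped. For Gnao1, the Go subunit of neuroendocrine cells, the 95% interval of the log2 fold change in alphaIRS1KD cells ran from -0.04 to 0.16. Gnaz, a relative of the inhibitory subunits that is insensitive to pertussis toxin, averaged 7.70 ± 0.07 in alphaIRS1KD, 7.91 ± 0.09 in alphaIRS2KD and 7.78 ± 0.03 in control cells (SD, n = 3 each), with adjusted p = 0.13 for alphaIRS1KD against alphaIRS2KD.

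Gnas, which encodes the stimulatory subunit, had log2 signals of 10.73, 10.77 and 10.77 in alphaIRS1KD, 10.90, 10.87 and 10.91 in alphaIRS2KD and 10.90, 10.91 and 10.90 in control cells. The alphaIRS1KD arrays were the lowest 3 of the 9 and did not overlap the rest. The difference from control cells was small, at 1.11-fold lower (log2 fold change -0.15, 95% interval -0.25 to -0.05), and missed the threshold (adjusted p = 0.098). It passed with array weights (adjusted p = 0.0454), with a trended and robust prior (0.0056), without the dimmest 30% of genes (0.0469) and with the methods' t-test after adjustment (0.0253). The locus makes several transcripts, which this probe does not tell apart. Gnal, the olfactory stimulatory subunit, was dim, with group means of 4.26 to 4.35.

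Of the subunits that act on other effectors, Gna12 was called. It had log2 signals of 9.29, 9.22 and 9.33 in alphaIRS1KD, 9.05, 9.08 and 8.77 in alphaIRS2KD and 8.96, 8.97 and 8.93 in control cells. The alphaIRS1KD arrays did not overlap either other group, while the alphaIRS2KD arrays spread around the control ones. It was 1.25-fold higher than control in alphaIRS1KD cells (log2 change 0.33, SE 0.08, adjusted p = 0.047), and missed the threshold against alphaIRS2KD cells (0.32, adjusted p = 0.073). The call was lost without any 1 of the control arrays, any 1 of the alphaIRS1KD arrays or alphaIRS2KD replicate 1, with adjusted p of 0.0606 to 0.148. Gnaq and Gna11, which activate phospholipase C beta, were not called. Gnaq averaged 9.85 ± 0.04 in alphaIRS1KD, 9.84 ± 0.05 in alphaIRS2KD and 9.69 ± 0.03 in control cells (SD, n = 3 each), with both knockdown lines above every control array and adjusted p of 0.11 and 0.26. Gna11 averaged 10.75, 10.74 and 10.74 in alphaIRS1KD, alphaIRS2KD and control cells.

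The beta subunits, which form a lasting dimer with a gamma subunit, held 0 called members of 4 in all 3 comparisons in limma, 0 also at an unadjusted p under 0.05, while the methods' t-test gave 1 higher in alphaIRS1KD than in control cells. Gnb1 averaged 12.06 ± 0.03 in alphaIRS1KD, 11.97 ± 0.05 in alphaIRS2KD and 11.97 ± 0.02 in control cells (SD, n = 3 each), and the 95% interval of its log2 fold change in alphaIRS1KD against control cells was -0.02 to 0.20. Gnb3, Gnb4 and Gnb5 had log2 fold changes of 0.03, 0.10 and 0.07 in alphaIRS1KD and 0.07, -0.02 and 0.01 in alphaIRS2KD cells. Of all genes, limma called 0.694% to 3.68% in a given direction and comparison, and 5.28% to 9.13% with p left unadjusted. The methods' own test had 8.22% of all genes higher in alphaIRS1KD than in control cells. With 4 beta subunits, a count of 0 or 1 cannot be told from these shares.

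The gamma subunits held 4 of the 10 members called, in both directions. In alphaIRS1KD against control cells 1 of 9 was higher and 3 were lower, where 2.98% and 3.68% of all genes were. Gng3, a gamma subunit known from neurons, had log2 signals of 8.12, 8.31 and 8.39 in alphaIRS1KD, 9.29, 9.31 and 9.25 in alphaIRS2KD and 9.24, 9.16 and 9.20 in control cells. The 3 alphaIRS1KD arrays were far below the 6 others, which lay close together. The level was 1.91-fold lower than control in alphaIRS1KD cells (log2 change -0.93, SE 0.07, adjusted p = 0.00011) and 2.02-fold lower than in alphaIRS2KD cells (-1.01, SE 0.07, adjusted p = 0.00013). The alphaIRS2KD change was 0.08 (adjusted p = 0.76, 95% interval -0.08 to 0.25). Both Gng3 calls held under all 20 alternatives, and its promoter window, shown above, held none of the motifs searched.

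Gng12, a widely expressed gamma subunit, had the same pattern at a dimmer probe. It measured 6.39, 6.31 and 6.27 in alphaIRS1KD, 7.14, 7.00 and 6.93 in alphaIRS2KD and 6.97, 7.11 and 7.06 in control cells. The knockdown of Irs1 was again the group that stood apart, 1.66-fold below control cells (log2 change -0.73, SE 0.07, adjusted p = 0.00039) and 1.63-fold below alphaIRS2KD cells (-0.70, adjusted p = 0.00074). A second probe of Gng12 was dim, with means of 3.67 in alphaIRS1KD, 3.39 in alphaIRS2KD and 3.58 in control cells, and showed no such difference. With the mean of both probes the call against alphaIRS2KD cells was lost (log2 fold change -0.21, adjusted p = 0.0996).

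Gng5 fell by less, but with little spread. Its signals were 8.92, 8.95 and 8.92 in alphaIRS1KD, 9.16, 9.15 and 9.14 in alphaIRS2KD and 9.29, 9.29 and 9.21 in control cells. The groups did not overlap, and alphaIRS2KD cells lay between the other two groups. It was 1.26-fold lower than control in alphaIRS1KD cells (log2 change -0.33, SE 0.05, adjusted p = 0.0028) and 1.17-fold lower than in alphaIRS2KD cells (-0.22, adjusted p = 0.032). The second of these calls was lost without control replicate 1 or 2, any 1 alphaIRS1KD array, or alphaIRS2KD replicate 1 or 2, with adjusted p of 0.0569 to 0.107. Mouse Gng5 has processed copies, so its probes may not be free of their signal, and a probe that names such a copy beside Gng5 was not used. The 2 remaining probes of Gng5 gave log2 fold changes of -0.22 and -0.30 in alphaIRS1KD cells.

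Gng11 was the only gamma subunit called higher. It encodes one of the few farnesylated gamma subunits, most others being geranylgeranylated. Its signals were 7.08, 7.00 and 7.75 in alphaIRS1KD, 6.41, 6.50 and 6.12 in alphaIRS2KD and 6.37, 6.31 and 6.27 in control cells. All alphaIRS1KD arrays were above all others, but 1 of them stood well above its 2 fellows, and the alphaIRS2KD and control arrays overlapped. It was 1.95-fold higher than control in alphaIRS1KD cells (log2 change 0.96, SE 0.18, adjusted p = 0.014) and 1.91-fold higher than in alphaIRS2KD cells (0.93, adjusted p = 0.025). Without the high array, alphaIRS1KD replicate 3, the change against control cells was 0.73 (adjusted p = 0.0097). The call against control cells was lost without control replicate 2 (adjusted p = 0.0537) or 3 (0.0578), and that against alphaIRS2KD cells without any 1 of the alphaIRS2KD arrays (0.0537 to 0.0688).

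**Figure D2:**
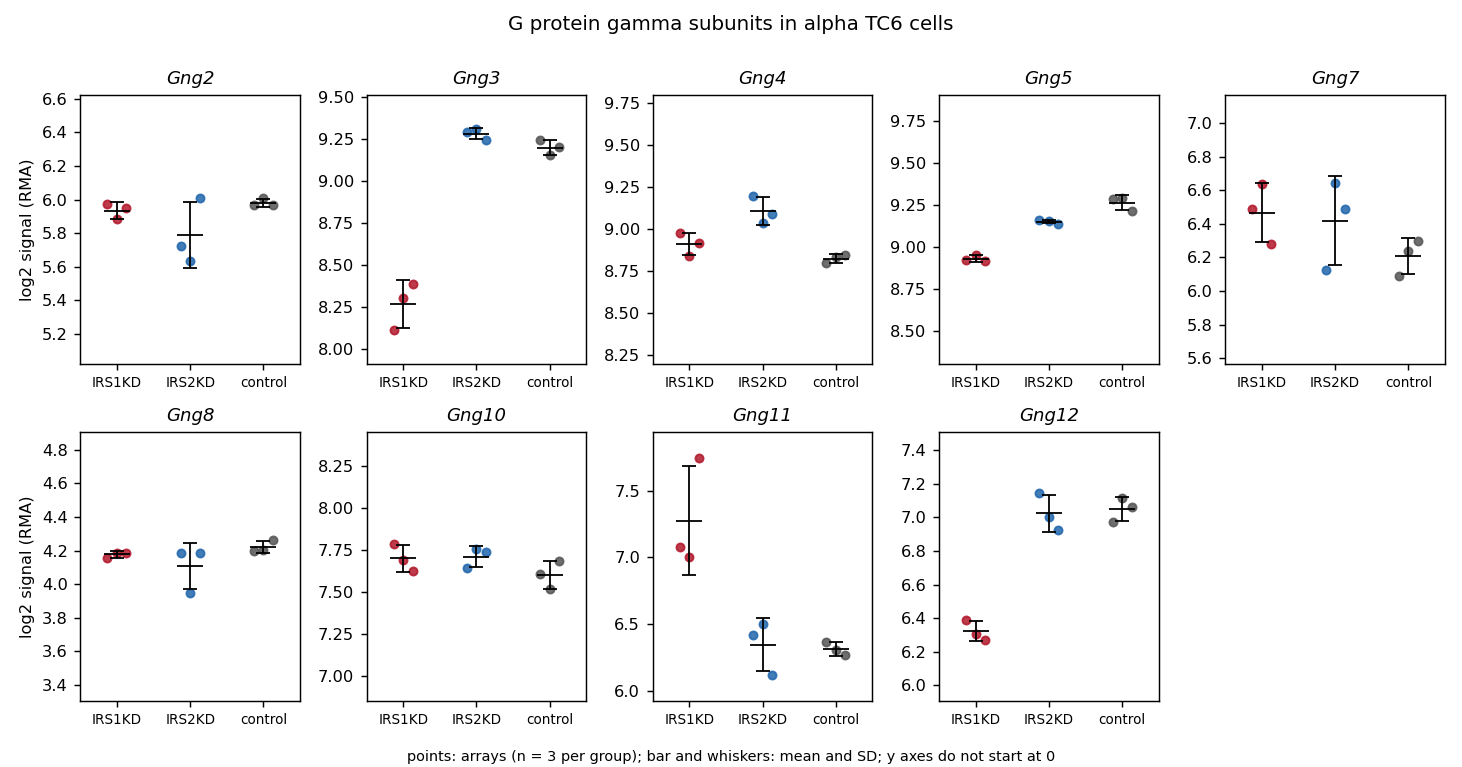
Log2 RMA signal of the 9 gamma subunits on each array, in alphaIRS1KD, alphaIRS2KD and control cells (3 arrays each), with the mean and SD. Gng3, Gng5 and Gng12 sit lowest and Gng11 highest on the 3 alphaIRS1KD arrays, with no overlap with the other groups.

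Gng4, a further gamma subunit of neuroendocrine cells, came closest to a call in alphaIRS2KD cells. It had log2 signals of 8.97, 8.84 and 8.92 in alphaIRS1KD, 9.20, 9.03 and 9.09 in alphaIRS2KD and 8.80, 8.83 and 8.84 in control cells. All alphaIRS2KD arrays were the highest of the 9, by 0.28 over control cells on the log2 scale (SE 0.06, adjusted p = 0.062), and 0.20 above alphaIRS1KD cells (adjusted p = 0.13). It was called against control cells with a trended and robust prior, with array weights and without the dimmest 30% of genes. The 4 other gamma subunits, Gng2, Gng7, Gng8 and Gng10, had log2 fold changes of -0.05 to 0.26 in alphaIRS1KD and -0.19 to 0.21 in alphaIRS2KD cells, and were not called.

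Of the adenylyl cyclases, which make cAMP from ATP, 1 of 9 was called. It was higher in alphaIRS1KD than in control cells, where 2.98% of all genes were called higher. Adcy9, a membrane cyclase that responds only weakly to forskolin, measured 7.18, 7.30 and 7.36 in alphaIRS1KD, 7.16, 7.00 and 6.96 in alphaIRS2KD and 6.73, 6.96 and 6.97 in control cells. The alphaIRS1KD arrays were the highest 3, by a narrow margin over 1 alphaIRS2KD array. It was 1.31-fold higher than control in alphaIRS1KD cells (log2 change 0.39, SE 0.09, adjusted p = 0.028), with 0.24 (adjusted p = 0.21) against alphaIRS2KD cells. The call was lost without control replicate 1 (adjusted p = 0.0821), 2 (0.0563) or 3 (0.050), or alphaIRS1KD replicate 2 (0.0983) or 3 (0.105). Its promoter window, which lies inside the RefSeq span of the gene (chr16:4284886-4437236), held 4 GC boxes and 1 half-site of the cAMP response element.

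Adcy6, a cyclase inhibited by calcium, averaged 7.62 ± 0.04 in alphaIRS1KD, 7.73 ± 0.04 in alphaIRS2KD and 7.62 ± 0.03 in control cells (SD, n = 3 each). Its alphaIRS2KD arrays lay above all others, with a log2 fold change of 0.11 against control cells (adjusted p = 0.44). Adcy2 had the largest cyclase change in alphaIRS2KD cells, 0.43 (SE 0.13, adjusted p = 0.20), with signals of 6.15, 6.07 and 6.06 in alphaIRS1KD, 6.55, 6.12 and 6.18 in alphaIRS2KD and 5.79, 6.06 and 5.71 in control cells. Adcy5 and the calcium-stimulated Adcy8, both known from islets, were near or under the array medians. Adcy5 averaged 5.07 in alphaIRS1KD, 5.11 in alphaIRS2KD and 5.22 in control cells, and Adcy8 averaged 4.43, 4.38 and 4.28.

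PKA showed a change in 1 regulatory subunit. Prkar2a encodes the type II regulatory subunit alpha, which binds the catalytic subunits and docks the kinase to anchoring proteins. Its signals were 9.30, 9.50 and 9.48 in alphaIRS1KD, 9.12, 9.16 and 9.13 in alphaIRS2KD and 8.96, 8.91 and 8.87 in control cells. No 2 groups overlapped, with alphaIRS1KD highest and control lowest. It was 1.43-fold higher than control in alphaIRS1KD cells (log2 change 0.51, SE 0.06, adjusted p = 0.0014) and 1.22-fold higher than in alphaIRS2KD cells (0.29, adjusted p = 0.035). In alphaIRS2KD cells the change was 0.22 (SE 0.06, adjusted p = 0.19). The call against alphaIRS2KD cells was lost without any 1 of the control arrays, alphaIRS1KD replicate 2 or 3, or any 1 of the alphaIRS2KD arrays, with adjusted p of 0.0569 to 0.134.

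The other 5 PKA subunits were not called in any comparison. The catalytic subunit Prkaca averaged 10.47 ± 0.05 in alphaIRS1KD, 10.43 ± 0.14 in alphaIRS2KD and 10.34 ± 0.05 in control cells (SD, n = 3 each), and the alphaIRS1KD change of 0.13 had a 95% interval of -0.04 to 0.29. Prkacb, the second catalytic subunit, averaged 8.93, 8.92 and 8.88 in alphaIRS1KD, alphaIRS2KD and control cells, with an interval of -0.12 to 0.22. Prkar2b, the type II beta subunit, averaged 7.24 ± 0.04 in alphaIRS1KD, 7.43 ± 0.11 in alphaIRS2KD and 7.22 ± 0.05 in control cells (SD, n = 3 each), and its alphaIRS2KD change was 0.21 (adjusted p = 0.24). The probe of Prkar1a, the type I alpha subunit that most tissues express, was dim, at 4.60 in alphaIRS1KD, 4.70 in alphaIRS2KD and 4.54 in control cells, so it gives little hold on that subunit.

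The phosphodiesterases held the largest increase of any member. Pde7b, which hydrolyses cAMP with high affinity, had log2 signals of 8.02, 8.16 and 8.18 in alphaIRS1KD, 7.36, 7.21 and 6.97 in alphaIRS2KD and 6.97, 7.16 and 7.15 in control cells. The alphaIRS1KD arrays stood clear of the 6 others, among which alphaIRS2KD and control cells overlapped. It was 2.04-fold higher than control in alphaIRS1KD cells (log2 change 1.03, SE 0.10, adjusted p = 0.00048) and 1.92-fold higher than in alphaIRS2KD cells (0.94, SE 0.10, adjusted p = 0.0012). In alphaIRS2KD cells the log2 fold change was 0.09 (adjusted p = 0.83). Its close relative Pde7a averaged 7.95 in alphaIRS1KD, 7.91 in alphaIRS2KD and 7.88 in control cells, with an interval of -0.12 to 0.28 for alphaIRS1KD against control cells.

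Pde6c, the catalytic subunit of the cone photoreceptor phosphodiesterase, was lower in alphaIRS1KD cells from a dim probe. It measured 4.92, 5.09 and 4.97 in alphaIRS1KD, 5.18, 5.18 and 4.90 in alphaIRS2KD and 5.39, 5.61 and 5.67 in control cells. Both knockdown lines lay below all control arrays and overlapped each other. The log2 fold change was -0.56 in alphaIRS1KD (SE 0.10, adjusted p = 0.010) and -0.47 in alphaIRS2KD cells (SE 0.10, adjusted p = 0.063), and -0.09 between them (adjusted p = 0.74). The alphaIRS2KD change passed with a trended and robust prior (adjusted p = 0.0396) and without the dimmest 30% of genes (0.0307). The alphaIRS1KD mean of 4.99 was under the array medians.

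**Figure D3:**
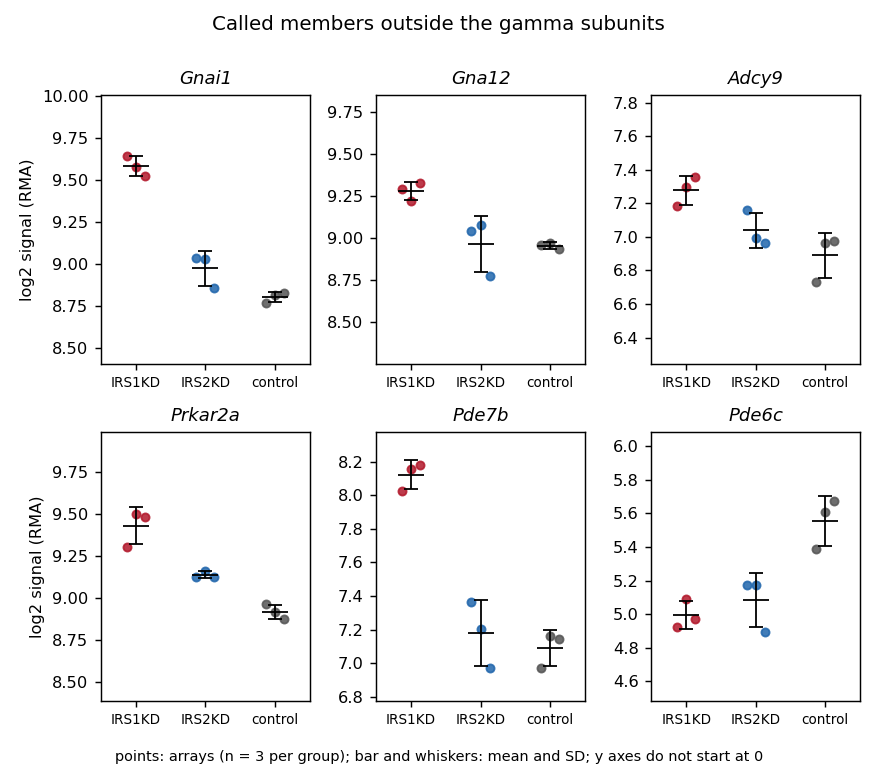
Log2 RMA signal on each array for the 6 called members outside the gamma subunits, in alphaIRS1KD, alphaIRS2KD and control cells (3 arrays each), with the mean and SD. Pde7b and Gnai1 are higher on every alphaIRS1KD array than on any other, Prkar2a steps down through alphaIRS1KD, alphaIRS2KD and control cells, and Pde6c is lowest in both knockdown lines.

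The remaining 24 phosphodiesterases were not called. Pde1c, a calmodulin-dependent enzyme, came nearest, with signals of 9.12, 9.00 and 8.95 in alphaIRS1KD, 8.96, 9.12 and 9.14 in alphaIRS2KD and 9.23, 9.32 and 9.28 in control cells. Both knockdown lines were below all control arrays, with log2 fold changes of -0.25 (SE 0.07, adjusted p = 0.068) in alphaIRS1KD and -0.20 (SE 0.07, adjusted p = 0.28) in alphaIRS2KD cells. The first passed with a trended and robust prior (adjusted p = 0.0198), with array weights (0.0260) and without the dimmest 30% of genes (0.0352). Pde3b, the cGMP-inhibited enzyme that insulin activates in fat and liver, averaged 10.48 ± 0.05 in alphaIRS1KD, 10.27 ± 0.08 in alphaIRS2KD and 10.35 ± 0.03 in control cells (SD, n = 3 each). Its alphaIRS1KD arrays were above all the others, and the difference from alphaIRS2KD cells of 0.21 did not pass (adjusted p = 0.10). Pde1a had the largest change of any member in alphaIRS2KD cells, 0.53 (SE 0.13, adjusted p = 0.13), from a dim probe with signals of 4.56, 5.04 and 4.72 against 4.13, 4.49 and 4.11 in control cells.

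Of the enzymes most studied in islets, Pde4b averaged 6.43 in alphaIRS1KD, 6.38 in alphaIRS2KD and 6.35 in control cells, and Pde4d averaged 5.78, 5.75 and 5.81. Both are specific for cAMP, and the intervals of their alphaIRS1KD changes were -0.02 to 0.18 and -0.14 to 0.09. Several arrays shared an identical signal, 6.38 for Pde4b and 5.79 for Pde4d, so the width of these intervals is a weak guide to precision. Pde8b, also specific for cAMP, averaged 5.54 ± 0.10 in alphaIRS1KD, 5.37 ± 0.12 in alphaIRS2KD and 5.41 ± 0.08 in control cells (SD, n = 3 each), with an interval of -0.05 to 0.31. Pde10a, which hydrolyses both cyclic nucleotides, averaged 8.66 in alphaIRS1KD, 8.71 in alphaIRS2KD and 8.76 in control cells.

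None of the 6 Rapgef genes was called in limma. Unadjusted, 1 was lower in alphaIRS1KD than in alphaIRS2KD cells in limma, where 8.22% of all genes were. The methods' t-test gave 1 higher and 1 lower in alphaIRS1KD against control cells, where it gave 8.22% and 8.98% of all genes. Against alphaIRS2KD cells it gave 1 higher, where it gave 5.29% of all genes. Rapgef3 (Epac1), one of the direct cAMP targets beside PKA, had signals of 5.29, 5.03 and 5.18 in alphaIRS1KD, 5.18, 4.83 and 5.18 in alphaIRS2KD and 5.18 on all 3 control arrays, near the array medians. Log2 fold changes in the family ran from -0.08 to 0.08 in alphaIRS1KD and from -0.12 to 0.15 in alphaIRS2KD cells. Adcy3, Gnb2 and Gng13, whose probes name several genes, and Rapgef4 (Epac2) were not analysed here.

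Over all 76 members, 24 had a mean under the middle array median of 5.08, and the 10 called members were among the 52 at or above it. The 66 members called in no comparison had log2 fold changes against control of at most 0.27 in size in alphaIRS1KD and 0.53 in alphaIRS2KD cells.

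Of 97 genes on 9 lists of pathway partners, 87 were measured. In alphaIRS1KD against control cells 6 were called higher and 6 lower, in alphaIRS2KD against control cells 4 were higher and 1 lower, and between alphaIRS1KD and alphaIRS2KD cells 5 were higher and 5 lower. In these comparisons that is 6.9% and 6.9%, 4.6% and 1.15%, and 5.75% and 5.75% of the partners, where 2.98% and 3.68%, 0.893% and 0.694%, and 1.71% and 2.42% of all genes were called higher and lower. Their median log2 fold changes were 0.021, 0.009 and 0.018 in these comparisons, against 0.005, -0.003 and 0.008 over all genes. No PKA inhibitor (2 measured) and no Rap GTPase (4 measured) was called in limma. At an unadjusted p under 0.05, limma had 0 of the PKA inhibitors in any comparison and of the Rap GTPases 1 higher in alphaIRS1KD and 1 higher and 1 lower in alphaIRS2KD against control cells, and the methods' t-test had 0 of either. Of all genes, unadjusted limma had 8.74% higher in alphaIRS1KD, and 5.53% higher and 5.28% lower in alphaIRS2KD against control cells.

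The regulators of G protein signalling (Rgs proteins), which speed the hydrolysis of GTP by alpha subunits, held calls in both knockdown lines. Of 21 measured, 1 was called higher and 3 lower in alphaIRS1KD against control, and 2 higher and 1 lower in alphaIRS2KD against control, where the shares of all genes were 2.98% and 3.68% and then 0.893% and 0.694%. Rgs2, which acts chiefly on Gq, measured 7.66, 7.51 and 7.67 in alphaIRS1KD, 8.58, 8.64 and 8.41 in alphaIRS2KD and 7.40, 7.29 and 7.39 in control cells. The alphaIRS2KD arrays stood apart, 2.27-fold above control cells (log2 change 1.18, SE 0.08, adjusted p = 0.00021), with 0.25 in alphaIRS1KD cells (adjusted p = 0.097). Rgs5 was lower in both lines, at 8.04, 8.26 and 8.15 in alphaIRS1KD and 7.99, 8.00 and 7.89 in alphaIRS2KD against 8.81, 9.10 and 9.27 in control cells, which is 1.88-fold (adjusted p = 0.0014) and 2.15-fold lower (adjusted p = 0.0017). Rgs7, a partner of Gnb5, was higher in both, by 0.52 in alphaIRS1KD (adjusted p = 0.00033) and 0.40 in alphaIRS2KD cells (adjusted p = 0.0048) on the log2 scale.

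Rgs16 and Rgs17 fell by 0.36 (adjusted p = 0.039) and 0.28 (adjusted p = 0.038) in alphaIRS1KD against control cells. Rgs16 lost its call without any 1 control or alphaIRS1KD array (adjusted p of 0.0686 to 0.132). Rgs17 lost its call without control replicate 1 or 2, any 1 alphaIRS1KD array, or alphaIRS2KD replicate 1 or 2 (0.0538 to 0.128). Between the knockdown lines, Rgs19 was 0.37 higher in alphaIRS1KD than in alphaIRS2KD cells (adjusted p = 0.030), which was lost without control replicate 2 or any 1 array of either knockdown line (0.0524 to 0.111). The dim Rgs13 had a log2 difference of -1.07 between alphaIRS1KD and alphaIRS2KD cells (adjusted p = 0.014, and 0.061 without alphaIRS1KD replicate 3).

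Among proteins that bind G proteins or receptors, Gpsm2, which holds inhibitory alpha subunits in their GDP form, was 9.03 on all 3 alphaIRS1KD arrays, 8.68, 8.67 and 8.62 in alphaIRS2KD and 8.71, 8.69 and 8.62 in control cells. It was 1.28-fold higher than control in alphaIRS1KD cells (adjusted p = 0.0022) and 1.29-fold higher than in alphaIRS2KD cells (adjusted p = 0.0027). Arrb1, beta-arrestin 1, had a like pattern, 1.32-fold higher than control in alphaIRS1KD cells (adjusted p = 0.0055) and 1.35-fold higher than in alphaIRS2KD cells (adjusted p = 0.0054). Grk5, a receptor kinase, was instead higher in alphaIRS2KD cells, at 9.10, 9.16 and 9.02 against 8.56, 8.68 and 8.63 in control cells (1.39-fold, adjusted p = 0.0051). Its difference between alphaIRS1KD and alphaIRS2KD cells, -0.32 (adjusted p = 0.018), was lost without any 1 alphaIRS1KD array or alphaIRS2KD replicate 1 or 2 (0.0509 to 0.0721).

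In the cGMP branch, 2 of 13 genes were called higher in alphaIRS1KD and 1 in alphaIRS2KD against control cells. Of all genes, 2.98% and 0.893% were called higher in these comparisons. Gucy2c, the guanylyl cyclase receptor for guanylin and uroguanylin, measured 6.39, 6.50 and 6.41 in alphaIRS1KD, 5.74, 5.65 and 5.53 in alphaIRS2KD and 5.06, 4.78 and 4.96 in control cells. The groups stood in 3 separate steps, with the control arrays at or under the array medians and so in the dim range. The signal was 2.82-fold above control in alphaIRS1KD (adjusted p = 1.9e-05) and 1.63-fold above control in alphaIRS2KD cells (adjusted p = 0.0041). Prkg1, cGMP-dependent kinase I, had signals of 8.38, 8.37 and 8.30 in alphaIRS1KD, 7.49, 7.48 and 7.35 in alphaIRS2KD and 7.38, 7.49 and 7.63 in control cells. It was 1.81-fold higher than control in alphaIRS1KD cells (adjusted p = 0.00018) and 1.88-fold higher than in alphaIRS2KD cells (adjusted p = 0.00021).

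Downstream of cAMP, 1 of 15 A-kinase anchoring proteins and 1 of 10 genes of the CREB list were called, both lower in alphaIRS1KD cells. Of all genes, 3.68% were called lower in alphaIRS1KD against control cells and 2.42% against alphaIRS2KD cells. Akap6, which anchors PKA at the nuclear envelope of muscle cells, measured 3.95, 3.45 and 3.46 in alphaIRS1KD, 4.68, 4.68 and 4.45 in alphaIRS2KD and 4.99, 4.88 and 4.83 in control cells, all under the array medians, a log2 fold change of -1.28 (SE 0.13, adjusted p = 0.0006). Sik1, a salt-inducible kinase that restrains CREB coactivators, measured 9.83, 9.80 and 9.83 in alphaIRS1KD, 10.12, 10.06 and 10.04 in alphaIRS2KD and 10.26, 10.15 and 10.21 in control cells, 1.31-fold lower than control in alphaIRS1KD cells (adjusted p = 0.0021). Its call against alphaIRS2KD cells (-0.25, adjusted p = 0.026) was lost without any 1 alphaIRS1KD array or alphaIRS2KD replicate 1 or 2 (0.063 to 0.103).

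Of 10 immediate genes that cAMP is known to induce, 2 were called in alphaIRS1KD against control cells, in opposite directions. There 2.98% of all genes were called higher and 3.68% lower. Nr4a2, an orphan nuclear receptor, changed by 0.37 (adjusted p = 0.038) and Dusp1, a phosphatase of MAP kinases, by -0.35 (adjusted p = 0.044) on the log2 scale. Nr4a2 lost its call without any 1 control or alphaIRS1KD array or alphaIRS2KD replicate 2 (adjusted p of 0.0527 to 0.137). Dusp1 lost it without any 1 control array, alphaIRS1KD replicate 2 or 3, or alphaIRS2KD replicate 1 or 2 (0.0552 to 0.156). For alphaIRS2KD against control cells, unadjusted limma had 5.53% of all genes higher and 5.28% lower. The methods' own test, also unadjusted, had 4.14% and 3.85% there. None of the 10 was called in alphaIRS2KD cells (smallest adjusted p = 0.11 in limma, with 2 higher and 1 lower when p was left unadjusted, and 1 each way by the methods' t-test).

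**Figure D4:**
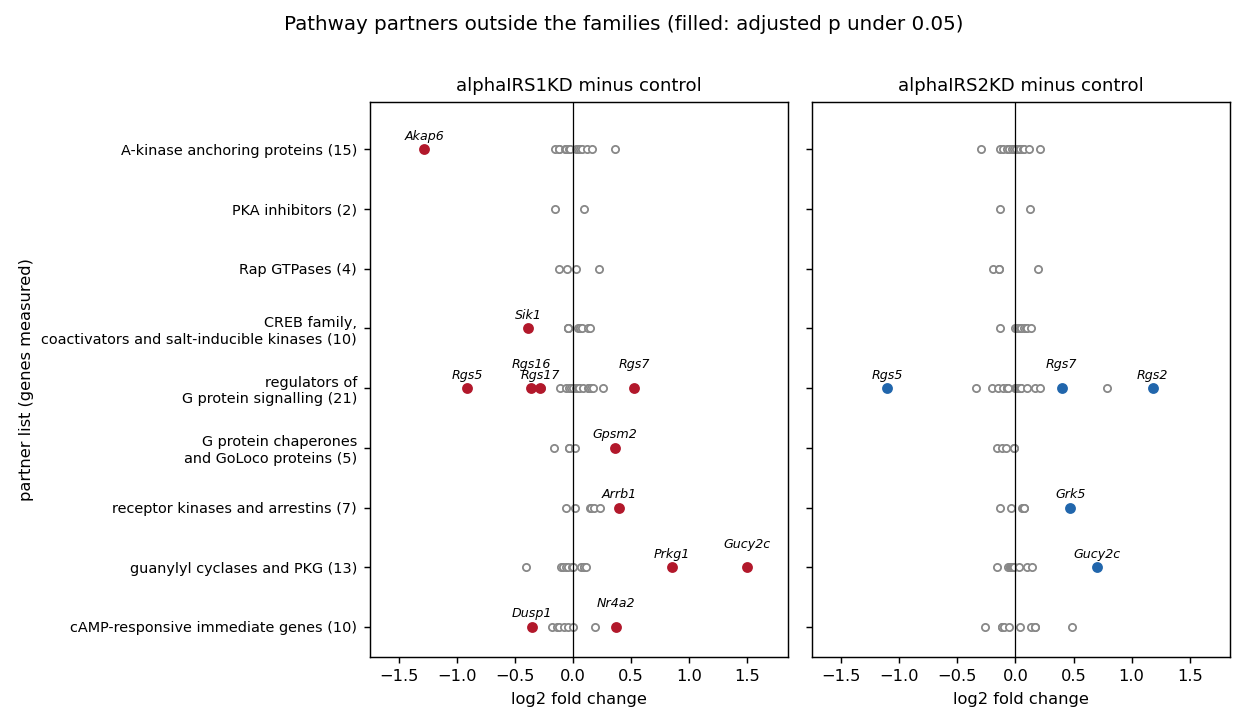
Log2 fold change of the 87 measured partner genes, 1 row per list with the number measured in parentheses, in alphaIRS1KD (left) and alphaIRS2KD cells (right) against control cells. Filled and named points passed an adjusted p of 0.05, 12 genes in alphaIRS1KD and 5 in alphaIRS2KD cells, with Gucy2c (2.82-fold higher) and Akap6 (at -1.28) the farthest on the left and Rgs2 at 1.18 and Rgs5 at -1.10 the farthest on the right.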

How the data were processed

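RNA of alphaIRS1KD, alphaIRS2KD and control alpha TC6 cells was measured with 3 arrays in each group (Affymetrix Mouse Gene 2.0 ST). The authors made the deposited log2 signals with RMA, whose version the sources do not give, and which removes background, brings arrays to a common distribution and sums up the probes of a transcript. RMA shrinks small differences at dim probes. Samples were grouped by GEO's labels, every column had a sample, and for arrays their number limits the precision.

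The table held 41345 probes, of which 23521 name 1 gene symbol in the platform annotation, 1820 several and 16004 none. Only the first kind was used, with the probe of highest mean signal for each gene, which gave 22180 genes. The authors' own pathway comparisons were not used. Adcy3, Gnb2, Gng13 and Rapgef4 were not analysed here.

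Groups were compared with limma 3.58.1 in R 4.3.3, from a single fit of all 9 arrays with group means as coefficients and moderated variances. Within each comparison p-values were adjusted over every gene by the Benjamini-Hochberg method, and 0.05 was the threshold of a call. SEs and 95% intervals come from limma, and SDs describe the arrays of a group. The script was tested on simulated data. The text names every called member, a fixed set of members known from cAMP signalling in islet cells whether called or not, and up to 6 called genes of each partner list, with Irs1 and Irs2 as a check of the labels. Genes outside this rule, such as Gng4, Pde1a, Adcy2, Pde7a and Rgs17, were named after their values were seen. The members and lists were chosen with earlier results of these data known. Same-numbered arrays did not deviate together (correlations of -0.08 to 0.02), so the groups were not paired.

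Alternatives were a looser threshold, array weights, a trended and robust prior, quantile normalization, median centring, the replicate block, a filter on the dimmest 30% of genes, a gene's mean over its probes, only the compared groups in the fit, the methods' t-test (adjusted and unadjusted) and each array left out in turn. Promoter windows (250 bases before the start) are RefSeq's for GRCm38.p6 and were found for 60 of 76 members by Entrez number.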

Additional observations from a re-analysis of the deposited data

Results flagged for a closer look

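For 7 members the change in alphaIRS1KD cells differed from the change in alphaIRS2KD cells by a test of the difference itself, the limma contrast of the 2 knockdown lines. Since both changes are taken against the same control arrays, this equals the difference between the lines. The log2 difference was 0.61 for Gnai1 (adjusted p = 0.00099), 0.94 for Pde7b (0.0012), 0.93 for Gng11 (0.025) and 0.29 for Prkar2a (0.035), each higher on all 3 alphaIRS1KD arrays than on any alphaIRS2KD array. It was -1.01 for Gng3 (0.00013), -0.70 for Gng12 (0.00074) and -0.22 for Gng5 (0.032), each lower on all 3 alphaIRS1KD arrays than on any alphaIRS2KD array. Of all genes tested, 1.71% were called higher and 2.42% lower in this comparison. The 7 members were picked by this same test, so the lack of overlap between their arrays adds no support of its own. The share of all genes without overlap was not computed. The alphaIRS2KD levels of Prkar2a and Gng5 lay between those of the other groups. No test for a single outlying array was run.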

How the results depend on the processing

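Across 20 alternatives, no called member or partner changed direction. Against control cells Gnai1, Gng3, Gng5, Gng12, Pde7b and Prkar2a were called in alphaIRS1KD cells under all of them, while Pde6c lost its call in 1 (the adjusted t-test), Gng11 in 3, Adcy9 in 7 and Gna12 in 9. Against alphaIRS2KD cells Gng3 was called under all, Gnai1 and Pde7b were lost only with the adjusted t-test, and Gng12 was lost in 2, Gng11 in 6, Gng5 in 11 and Prkar2a in 12. The cause was not tested.

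Some counts of members moved by over 1.5 times. For alphaIRS1KD against control cells, 6 higher and 4 lower became 14 and 7 with the unadjusted t-test (18.4% and 9.21% of members, where 8.22% and 8.98% of all genes passed), and leaving out 1 array gave 3 to 6 higher, with 3 without control replicate 2 or 3. For alphaIRS2KD against control cells, 0 and 0 became 1 and 1 with a trended and robust prior, without the dimmest 30% of genes and at an adjusted p under 0.1, 1 higher with array weights (the higher one being Gng4 and the lower one Pde6c), 7 and 3 with the unadjusted t-test (where 4.14% and 3.85% of all genes passed), and 0 to 1 lower with 1 array left out, the 1 being Gng2 without alphaIRS2KD replicate 3. For alphaIRS1KD against alphaIRS2KD cells, 4 higher and 3 lower became 7 and 5 with a trended and robust prior, 10 and 9 with the unadjusted t-test (where 5.29% and 6.18% of all genes passed), 0 and 2 with the adjusted one, 4 and 1 with the mean of all probes, and 2 and 2 with only these groups in the fit. Leaving out 1 array gave 2 to 4 higher there, with 2 without alphaIRS2KD replicate 1 or 2. With the replicate block the counts were 2 higher and 2 lower for alphaIRS1KD against alphaIRS2KD cells and 4 and 4 for alphaIRS1KD against control cells, with 0 for alphaIRS2KD, and since same-numbered arrays did not deviate together, the numbers pair nothing.

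Probes under the array medians, 24 of 76 members, carry little signal, and each group is 1 line on 3 arrays.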

Other observations

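Beyond the probe kept for each gene, 5 members had further probes. The 3 probes of Gng5 had log2 fold changes of -0.33, -0.22 and -0.30 in alphaIRS1KD against control cells, and -0.11, -0.04 and -0.10 in alphaIRS2KD cells. With all probes tested, the adjusted p in alphaIRS1KD cells was 0.0098 for the brightest and 0.082 and 0.074 for the others. Both probes of Prkaca gave like values, 0.13 and 0.12 in alphaIRS1KD cells, as did those of Pde7a, at 0.08 and 0.15. For Rapgef3 they were -0.02 and 0.19. For Gng12 they were -0.73 and 0.09, the second from a probe of mean 3.67 in alphaIRS1KD and 3.58 in control cells.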
